A study of Mus musculus with 4 samples.

Results

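Cell adhesion, epithelial-to-mesenchymal transition (EMT) and actomyosin genes were followed in mouse embryonic stem cells (ESCs) in which the m6A reader gene Ythdf2 was knocked down. The list holds 43 genes of the 49997 rows of the deposited count table, and 40 of the 43 passed the filter on low counts that left 18341 genes for testing. The list was drawn up around a pair of measured values of this same comparison, the rise of Limch1 and the fall of Tgm2, which are therefore described without a test. The other 41 genes were added for their function, with results of these data already known, and they are read through the fit across all genes.

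Cells of the E14 line were grown on gelatin with leukemia inhibitory factor and KnockOut Serum Replacement, without feeder cells being named. All 4 libraries came from cells infected with a lentiviral short hairpin RNA (shRNA) and kept under puromycin, so that the controls share the vector and the selection. The control libraries carried a scrambled hairpin (shScramble, 2 libraries) and the knockdown libraries a hairpin against Ythdf2 (shYthdf2, 2 libraries), described in the study's methods as independent biological replicates. Which of the study's Ythdf2 hairpins these libraries carry, and whether the stable lines are clones, is not given in the sources used here, and according to the study's text its knockdown lines also held a tdTomato reporter driven by the MERVL promoter.

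Epithelial cells hold on to each other through adherens junctions, built by cadherins that bind the actin cortex through catenins, through tight junctions, which seal the space between cells, and through desmosomes, which anchor intermediate filaments. In EMT cells shift from E-cadherin (Cdh1) to N-cadherin (Cdh2) and turn on vimentin (Vim), a change driven by the SNAIL and ZEB repressors, which bind E-box sequences at junction genes, and opposed by factors such as GRHL2 and the ESRP splicing regulators. ESCs are epithelial in this sense, because E-cadherin joins them into compact colonies, and non-muscle myosin II pulling on actin sets the tension in those colonies.

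The libraries held between 31113006 and 36422510 counted reads, and the targeted gene Ythdf2 fell to 34.2% of its control level, from 93.4 and 87.6 to 31.8 and 30.2 CPM (read counts scaled with TMM factors to a common library total). Of 8 markers of ESCs, all were tested, and they summed to 6074 and 5947 CPM in shScramble and to 5799 and 5308 CPM in shYthdf2. Only Tdgf1 was called, as lower (log2 fold change -0.47, edgeR adjusted p = 0.041). At an unadjusted p under 0.05, 1 ESC marker was higher and 3 were lower, and 3 log2 fold changes were positive and 5 negative. The 10 fibroblast markers summed to between 12.9 and 28.7 CPM, and 3 of the 10, Dcn, Twist2 and Fap, had 0 reads in every library. Of the 10, 4 were tested and edgeR called 0, with 1 lower at an unadjusted p under 0.05. Their log2 fold changes, 1 positive and 3 negative, had a median of -0.52. Markers of other cell types were summed in the same way. The 7 markers of 2-cell-like (2C-like) cells summed to 31.2 and 51.2 CPM in shScramble and to 74.4 and 222 CPM in shYthdf2, with 3 of 6 tested called higher. The 7 markers of primitive endoderm summed to 309 and 289 CPM and to 414 and 343 CPM, with 0 of 6 called by edgeR, 1 at an unadjusted p under 0.05, and 4 positive and 2 negative log2 fold changes whose median was 0.11. The 6 trophectoderm markers summed to 72.7 and 82.6 CPM and to 107 and 82.3 CPM. Of the 6, 5 were tested and edgeR called 0, with 1 higher and 1 lower at an unadjusted p under 0.05. Their log2 fold changes, 2 positive and 3 negative, had a median of -0.13. The part of these cells in the results on adhesion genes was not tested, and in RNA from whole cultures a change in the number of cells of a type cannot be told apart from a change in RNA per cell.

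Calls among the listed genes are given beside those over all genes tested. Limch1 and Tgm2, whose calls are fixed by how the list was made, are set aside from the counts. With edgeR's quasi-likelihood test, 3 of the other 38 genes tested were higher in shYthdf2 (Cdh2, Vim and Jup) and 0 were lower. At an unadjusted p under 0.05 there were 4 and 5. Over all 18341 genes tested, 2024 were higher and 1798 lower at that unadjusted p. Nothing is read from such counts, here or in the lists below. The 3 called genes are 7.89% of the 38, and of all genes tested 3.91% were called, 2.43% as higher and 1.49% as lower. Since the list was made with this comparison in view, nothing is read from these shares. DESeq2 called 4 of the 38 higher, with Cldn4 added, and 3 lower, namely Tjp1, Grhl2 and Myh10, and limma-voom called 3 and 0. Over all genes, DESeq2 called 1402 and limma-voom 621, where edgeR called 718. With the criteria used in the study, which were an unadjusted DESeq2 p of at most 0.05 and a log2 fold change of at least 1 in size, Cdh2 and Vim were higher and 0 of the 38 were lower, and 2.88% of all genes with a read met them. The median log2 fold change over the 38 genes was -0.03, and over all genes tested it was 0.00. In 18 of the 38 genes the libraries of the groups did not overlap, 7 with shYthdf2 higher and 11 with it lower, and 51.8% of all genes tested showed no overlap.

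**Figure D1:**
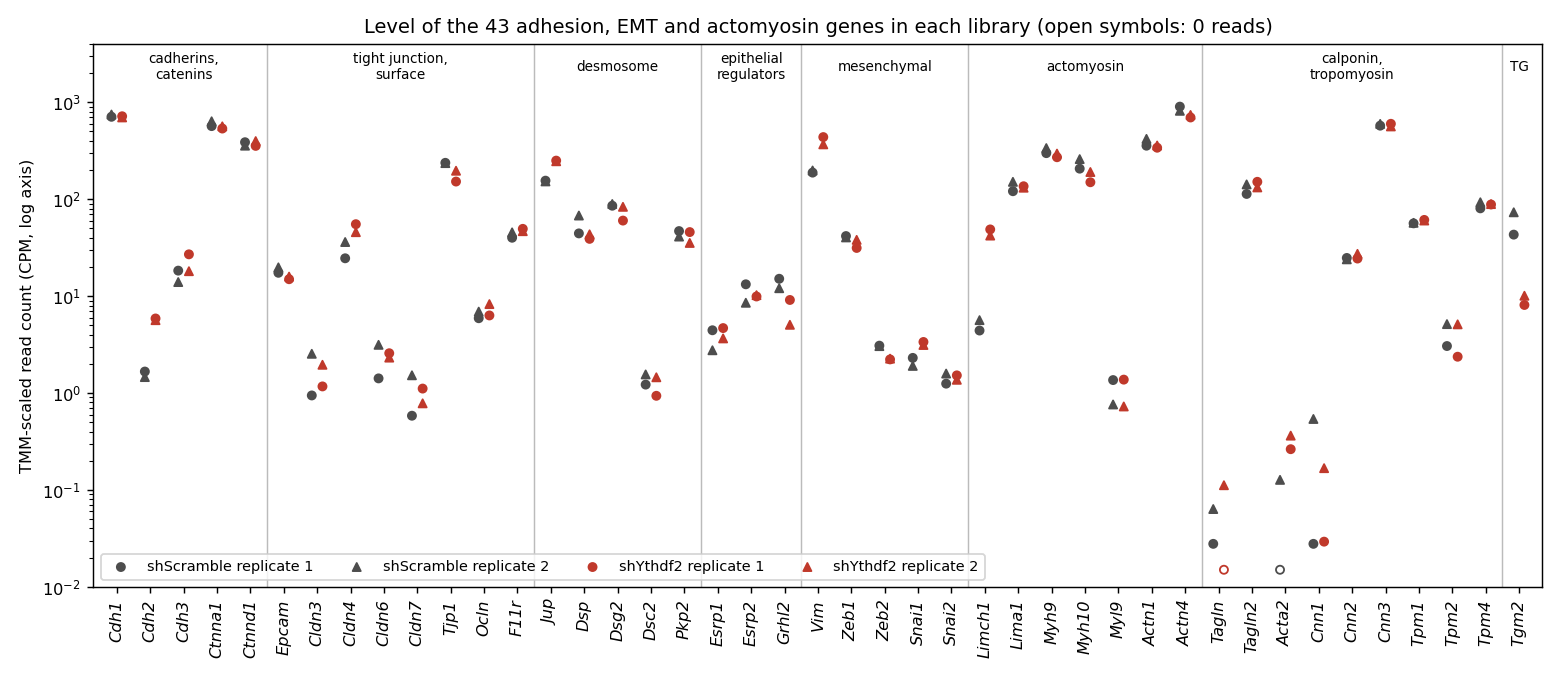
Level of each of the 43 genes in each library, in TMM-scaled CPM on a log axis, grouped by role, with circles for replicate 1, triangles for replicate 2, gray for shScramble, red for shYthdf2 and open symbols for 0 reads (TG, transglutaminase). Most genes sit at nearly the same height in all 4 libraries, and Cdh2, Vim, Jup, Limch1 and Tgm2 show both shYthdf2 libraries clear of both shScramble libraries.

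In the control libraries the highest levels belonged to actin-binding, cadherin and catenin genes and to vimentin. Levels of different genes were compared only roughly, per kilobase of exon (RPKM), where the length is that of all exons of a gene together. For Ctnnd1 this is 21060 bases, while its longest protein-coding transcript has 6362, and for Cdh1 it is 4432 against 4430. The level of genes like Ctnnd1 can therefore be understated, and their place in the order is uncertain. The highest of the 43 genes in shScramble was the actin-binding calponin Cnn3 at 293 RPKM. It was followed by the actin crosslinker Actn4 at 213 RPKM, Cdh1 at 164 RPKM, alpha-catenin Ctnna1 at 149 RPKM and Vim at 105 RPKM. The ranges over the 2 shScramble libraries separated each of the first 5 genes from the next, except that Vim overlapped Tagln2 at 92.5 RPKM. In all, 21 genes had a mean of at least 10 RPKM, 11 lay from 1 to 10 RPKM and 11 lay below 1 RPKM, and 27 of the 42 pairs of neighbours in this order overlapped. Limch1 was the 35th in shScramble, at 0.755 RPKM, and Cdh2 the 40th, at 0.157 RPKM. The lowest 3 were smooth muscle genes that were not tested. Cnn1 had 1, 17, 1 and 6 reads (in the order shScramble replicates 1 and 2, shYthdf2 replicates 1 and 2, used throughout), Acta2 had 0, 4, 9 and 13 reads and Tagln had 1, 2, 0 and 4 reads. For Tagln 85.8% of the exon bases are shared with Pcsk7 on the opposite strand, and reads lying over both genes were left out of the counts, so its level is uncertain.

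Limch1 encodes a protein with calponin-homology and LIM domains that binds non-muscle myosin IIA and activates it, and of the 40 genes tested it rose most. It is a plus-strand gene of chromosome 5 (positions 66745889 to 67057159, mm10) and was read 159, 178, 1668 and 1508 times. Its level was 4.41 and 5.65 CPM in shScramble and 48.8 and 42.1 CPM in shYthdf2. Both knockdown libraries were thus far above both controls, and the log2 fold change was 3.18 (SE 0.18), a ratio of the group means of 9.03. Per kilobase it went from 0.755 to 6.82 RPKM. Over 12 other settings of the analysis its log2 fold change lay between 3.01 and 3.36. These values chose the list and are given as a description.

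Tgm2, the tissue transglutaminase that crosslinks proteins and also acts at the cell surface in adhesion to fibronectin, fell most of the 40 genes tested. It is a minus-strand gene of chromosome 2 (positions 158116405 to 158146392) and was read 1553, 2309, 277 and 361 times. Its level was 43.1 and 73.3 CPM in shScramble and 8.10 and 10.1 CPM in shYthdf2. The controls differed from each other by more than the knockdown libraries did, yet the groups were far apart, with a log2 fold change of -2.68 (SE 0.24) that left 15.6% of the control level. It ranged from -3.01 to -2.24 over the 12 other settings, both ends with 1 shScramble library left out. Of 7 other transglutaminase genes, 2 passed the filter and neither was called: Tgm1 had 56.7, 47.4, 48.9 and 50.7 CPM (log2 fold change -0.06, edgeR adjusted p = 0.83), and Tgm3 had a log2 fold change of 0.35 (edgeR adjusted p = 0.44).

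The start regions of the genes that rose are shown for the risers with a start region in the reference table, as 300 bases each in the 5′ to 3′ direction of the gene (RefSeq, GRCm38.p6, the assembly named mm10), from 250 bases before to 50 bases after the start site. Limch1 has 3 start sites in the table, of which the most upstream is printed, and capitals mark the core TATA box sequence TATAAA, a motif added after the sequences had been seen. It stood 32 bases before the start of Vim, and it was not found in the printed windows of Limch1 and Jup. On either strand TATAAA was found in 13.6% of all 32851 promoters in the table and in 4 of the 37 promoters of the listed genes, which belong to Ctnnd1, Limch1 (its start site 3), Myh9 and Vim.
Limch1, chr5:66745639-66745938, plus strand: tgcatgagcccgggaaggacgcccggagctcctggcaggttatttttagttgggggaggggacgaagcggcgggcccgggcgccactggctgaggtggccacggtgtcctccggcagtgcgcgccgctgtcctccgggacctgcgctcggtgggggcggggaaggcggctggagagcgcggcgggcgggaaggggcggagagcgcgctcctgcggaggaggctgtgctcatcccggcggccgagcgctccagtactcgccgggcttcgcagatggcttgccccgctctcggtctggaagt
Vim, chr2:13574061-13574360, plus strand: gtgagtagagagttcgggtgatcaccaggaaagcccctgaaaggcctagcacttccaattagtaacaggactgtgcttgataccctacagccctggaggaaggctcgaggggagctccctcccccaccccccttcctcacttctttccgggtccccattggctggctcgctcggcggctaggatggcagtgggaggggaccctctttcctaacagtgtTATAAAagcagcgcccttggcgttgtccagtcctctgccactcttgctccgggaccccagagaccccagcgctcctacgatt
Jup, chr11:100397741-100398040, minus strand: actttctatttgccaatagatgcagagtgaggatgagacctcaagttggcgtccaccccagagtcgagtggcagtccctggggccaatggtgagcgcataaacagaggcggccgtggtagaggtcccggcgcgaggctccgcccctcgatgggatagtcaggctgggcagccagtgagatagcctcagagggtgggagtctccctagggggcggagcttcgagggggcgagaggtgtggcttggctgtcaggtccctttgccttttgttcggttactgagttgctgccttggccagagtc

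These windows differ in base composition, with 72.7% G and C at Limch1 (start site 1), 59.3% at Vim and 60.7% at Jup. Start sites 2 and 3 of Limch1 had 39.7% and 50%, and which of its start sites these cells use was not tested. The median was 52.7% over all promoters in the table and 61.3% over the 37 promoters, of 29 listed genes, that could be matched. No promoter sequence was used for Snai2, Cdh3, Dsg2, Tgm2, Esrp2, Cdh1, Zeb1, Dsc2, Ctnna1, Grhl2, Cdh2, Esrp1, Tagln and Pkp2.

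Among the cadherins, N-cadherin rose from a very low level and E-cadherin did not move. Cdh2 is a minus-strand gene of chromosome 18 (positions 16588877 to 16809246) and was read 60, 46, 201 and 202 times, or 1.67 and 1.46 CPM in shScramble and 5.88 and 5.64 CPM in shYthdf2. The libraries of each group lay close together and the groups did not overlap, at a log2 fold change of 1.88 (edgeR, SE 0.29, adjusted p = 0.011), and the call held in all 12 other settings. Cdh1 is a plus-strand gene of chromosome 8 (positions 106603350 to 106670247), and its level was 709 and 748 CPM against 718 and 698 CPM. The groups overlapped, and the log2 fold change of -0.04 had a 95% confidence interval from -0.26 to 0.18 (edgeR adjusted p = 0.87). Placental cadherin, Cdh3, lay at 18.3 and 14.0 CPM against 27.0 and 18.1 CPM and overlapped between groups (log2 fold change 0.48, edgeR adjusted p = 0.25), although it was called higher without shYthdf2 replicate 2.

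Set against each other within a library, Cdh1 exceeded Cdh2 per kilobase by 957-fold and 1152-fold in shScramble and by 275-fold and 278-fold in shYthdf2. On the log2 scale the ratio was 9.90 and 10.17 in shScramble and 8.10 and 8.12 in shYthdf2, a change of -1.93. With 2 libraries against 2, the smallest two-sided p of an exact permutation test is 0.333, and this ratio therefore carries no test of its own. Cdh2 remained a small part of the total. It made up 0.102% and 0.0850% of the summed RPKM of the 3 cadherins in shScramble and 0.349% and 0.348% in shYthdf2, and Cdh1 made up between 95.7% and 97.9% in every library. The exon length used for Cdh2 was 9964 bases, while its longest protein-coding transcript has 4843. For Cdh1 these lengths are 4432 and 4430. The folds and the shares therefore depend on the length used, and the change of -1.93 does not.

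The catenins Ctnna1 and Ctnnd1 did not pass the test. Ctnna1, alpha-catenin, which links cadherins to actin, had 568 and 637 CPM against 536 and 565 CPM, which did not overlap but differed little (log2 fold change -0.13, edgeR adjusted p = 0.54). Ctnnd1, p120-catenin, which keeps cadherins at the membrane, had 387 and 357 CPM against 355 and 398 CPM and overlapped (log2 fold change 0.02, edgeR adjusted p = 0.95). Of the 12 further adherens junction genes looked at, such as nectins and Ctnnb1, 9 were tested and 0 were called by edgeR, with 2 higher and 2 lower at an unadjusted p under 0.05.

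Desmosome genes split. Jup, plakoglobin, which serves both desmosomes and adherens junctions, rose, and the other 4 did not pass the test. Jup is a minus-strand gene of chromosome 11 (positions 100368856 to 100397839) and was read 5599, 4809, 8556 and 8818 times. Its level was 155 and 153 CPM in shScramble and 250 and 246 CPM in shYthdf2. Replicates were nearly equal, at 154 ± 2.00 CPM against 248 ± 2.74 CPM (SD, n = 2), and the log2 fold change was 0.69 (SE 0.10, edgeR adjusted p = 0.0088), a ratio of 1.61 that kept between 0.68 and 0.70 on the log2 scale in all 12 other settings. Desmoplakin, Dsp, which ties desmosomes to intermediate filaments, had 44.4 and 67.9 CPM against 39.0 and 43.4 CPM (log2 fold change -0.44, edgeR adjusted p = 0.20), and 1 control library stood well above the other 3. The desmosomal cadherin Dsg2 had 85.7 and 89.3 CPM against 60.2 and 83.4 CPM (log2 fold change -0.28, edgeR adjusted p = 0.32). Plakophilin Pkp2 overlapped between groups at 46.9 and 41.2 CPM against 45.8 and 35.4 CPM, and Dsc2 was near the bottom with 32 to 52 reads per library. Perp, a desmosome-associated membrane protein from a further list of 14 desmosome and keratin genes, rose from 20.3 and 14.9 CPM to 40.3 and 29.2 CPM (log2 fold change 0.98, edgeR adjusted p = 0.031), the one call among 9 tested, with 2 higher and 2 lower at an unadjusted p under 0.05.

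Tight junction and epithelial surface genes held 0 calls among 8 tested by edgeR, with 1 higher and 1 lower at an unadjusted p under 0.05. Cldn4, a claudin of sealing strands and the highest of the 4 claudins, had 24.6 and 36.2 CPM in shScramble and 55.3 and 45.7 CPM in shYthdf2. The groups did not overlap, and the log2 fold change of 0.73 (SE 0.18) came close to the threshold (edgeR adjusted p = 0.058), which it passed in 6 of 12 other settings, DESeq2 among them. Tjp1, the scaffold ZO-1 that joins tight junctions to actin, had 238 and 236 CPM against 152 and 197 CPM (log2 fold change -0.44, edgeR adjusted p = 0.092), with the knockdown libraries further apart than the controls, and it passed in 4 of the 12. The epithelial surface protein Epcam had 17.4 and 19.8 CPM against 14.9 and 15.9 CPM (log2 fold change -0.27, edgeR adjusted p = 0.39). The junctional adhesion molecule F11r (log2 fold change 0.17, edgeR adjusted p = 0.48) and occludin, Ocln (log2 fold change 0.19, edgeR adjusted p = 0.72), did not pass either.

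The claudins besides Cldn4 were low and uneven. Cldn3 was read 34, 80, 40 and 70 times, Cldn6 51, 99, 88 and 83 times and Cldn7 21, 48, 38 and 28 times, so in each the control libraries held both the lowest and the highest count. A difference in Cldn3 was not detectable at this depth, with a 95% confidence interval for the log2 fold change from -1.28 to 0.98. The exon length listed for Cldn7 includes a copy of the gene on 1 extra contig, so its level per kilobase is uncertain. Cldn4 made up between 81.3% and 91.0% of the summed RPKM of these 4 claudins in every library.

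The letters CACCTG, the E-box that SNAIL and ZEB repressors bind, were searched on both strands (where they read CAGGTG) because they link the tight junction genes to the mesenchymal factors on the list. They were found in 13 of 37 promoters of the listed genes, or 35.1%, and in 20.2% of all 32851 promoters. The genes that hold them are Actn4, Cldn3, Cldn4, Cldn6, Cldn7, Dsp, Epcam, F11r, Myh10, Myl9, Ocln and Snai1. These include 7 of the 8 tight junction and surface genes, all but Tjp1. For each of the 7 the match nearest to a listed start site is shown as 30 bases in the direction of the gene (RefSeq, GRCm38.p6), with the E-box in capitals.
Cldn3, chr5:134986233-134986262, plus strand: caaagccacaggCAGGTGcaggggcagtct
Cldn4, chr5:134946906-134946935, minus strand: cctttcttgttgCAGGTGcaggcaggaaag
Cldn6, chr17:23679385-23679414, plus strand: aatcttagcagtctcttttgCAGGTGagcc
Cldn7, chr11:69965352-69965381, plus strand: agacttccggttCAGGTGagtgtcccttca
Epcam, chr17:87635948-87635977, plus strand: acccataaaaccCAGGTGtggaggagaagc
F11r, chr1:171437427-171437456, plus strand: agttcggggttgCACCTGcgtacggtgagt
Ocln, chr13:100552694-100552723, minus strand: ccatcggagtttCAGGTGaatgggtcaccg

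A match is a description of the letters and not a bound site. The genes shown did not move one way: their log2 fold changes ran from -0.27 for Epcam to 0.73 for Cldn4, and edgeR called 0 of the 7, with Cldn4 the 1 at an unadjusted p under 0.05. From a wider list of 21 tight junction and polarity genes, 16 were tested, 2 were higher and 4 lower at an unadjusted p under 0.05, and 2 were called, in opposite directions and both of the cingulin family, cytoplasmic adaptors of tight junctions. Cgn fell from 27.2 and 34.5 CPM to 8.98 and 14.4 CPM (log2 fold change -1.40, SE 0.23, edgeR adjusted p = 0.015). Its paralog Cgnl1 rose from 22.8 and 22.8 CPM to 35.4 and 36.1 CPM (log2 fold change 0.65, SE 0.13, edgeR adjusted p = 0.031). In both, the groups did not overlap.

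Regulators that hold cells epithelial held 0 calls among 3 by edgeR, and 1, Grhl2, had an unadjusted p under 0.05. Grhl2, a transcription factor that maintains epithelial junction genes, had 15.1 and 12.1 CPM in shScramble and 9.13 and 5.06 CPM in shYthdf2. Both knockdown libraries were below both controls, at 52.2% of the control mean, and the knockdown libraries differed more from each other than the controls did (log2 fold change -0.94, SE 0.28, edgeR adjusted p = 0.094). It passed in 5 of the 12 other settings. The splicing regulators Esrp1 (log2 fold change 0.21, edgeR adjusted p = 0.77) and Esrp2 (log2 fold change -0.11, edgeR adjusted p = 0.84) overlapped between groups. Of 11 further epithelial regulators and proteases, 10 were tested and edgeR called 0, with 1 lower at an unadjusted p under 0.05.

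**Figure D2:**
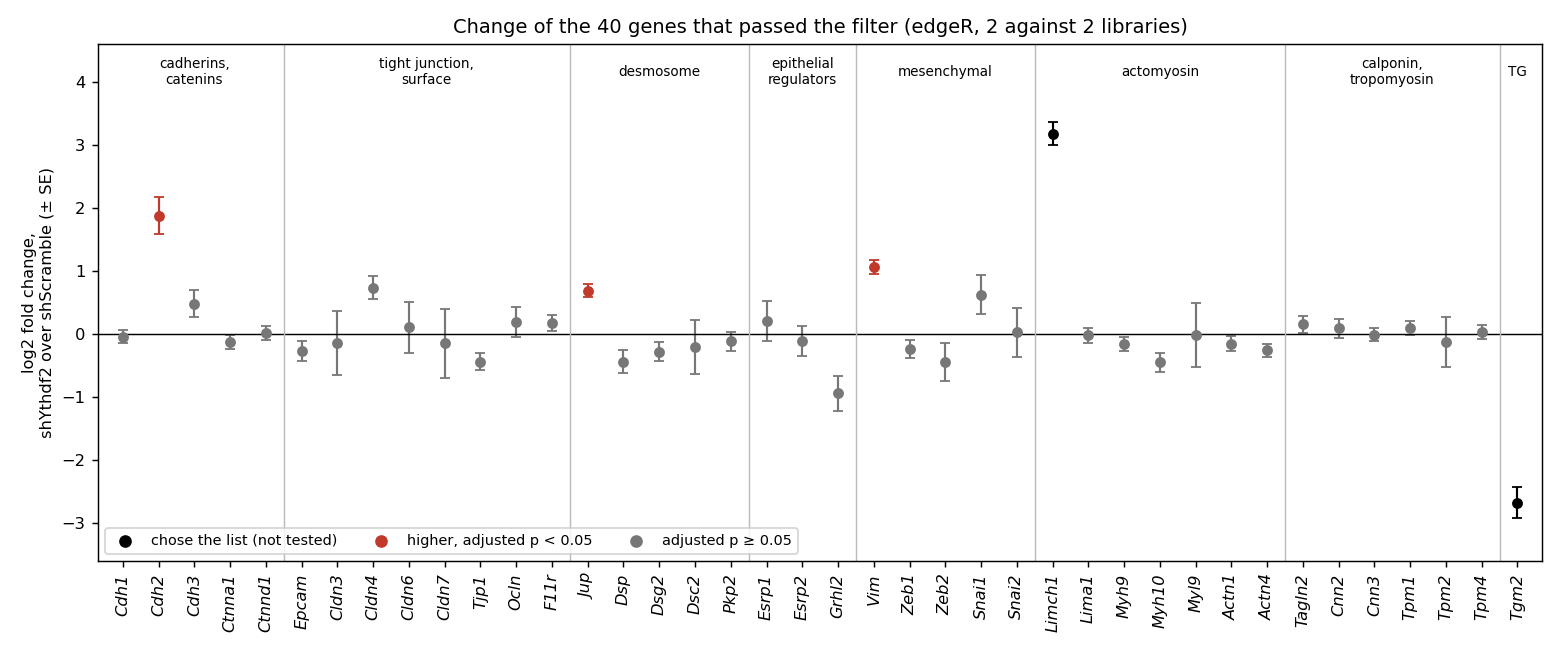
Log2 fold change of shYthdf2 over shScramble with its standard error for the 40 genes that passed the filter, grouped by role, with black for the pair that chose the list, red for genes called higher and gray for the rest (edgeR, 2 against 2 libraries; TG, transglutaminase). Beside Limch1 and Tgm2, Cdh2 at 1.88, Vim at 1.06 and Jup at 0.69 stand above 0 by many times their error bar, and Grhl2 at -0.94 has the lowest value among those not called.

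Of the mesenchymal genes, vimentin rose, and the SNAIL and ZEB repressors on the list did not pass the test. Vim, the intermediate filament protein of mesenchymal cells, is a plus-strand gene of chromosome 2 (positions 13574311 to 13582826) and was read 6777, 6235, 14967 and 13177 times. Its level was 188 and 198 CPM in shScramble and 438 and 368 CPM in shYthdf2, so that the lower knockdown library was still well above the higher control. The log2 fold change was 1.06 (SE 0.12, edgeR adjusted p = 0.0031), a ratio of 2.09, and per kilobase Vim went from 105 to 220 RPKM, which put it above Cdh1 at 160 RPKM in shYthdf2. It lay between 0.93 and 1.18 over the 12 other settings and passed in all.

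Snai1, the SNAIL repressor of Cdh1, was read 83, 60, 115 and 112 times, or 2.30 and 1.90 CPM against 3.36 and 3.13 CPM. The groups did not overlap, and the change did not pass the test (log2 fold change 0.62, SE 0.31, edgeR adjusted p = 0.29). Snai2 overlapped between groups at 45 to 52 reads per library (log2 fold change 0.03, edgeR adjusted p = 0.98). The ZEB repressors had negative values: Zeb1 had 41.7 and 40.3 CPM against 31.4 and 38.1 CPM (log2 fold change -0.24, edgeR adjusted p = 0.36), and Zeb2 had 3.08 and 3.05 CPM against 2.22 and 2.26 CPM (log2 fold change -0.45, edgeR adjusted p = 0.45). Of 10 further mesenchymal genes, 6 were tested and 1 was called, with 2 higher and 2 lower at an unadjusted p under 0.05. This was Snai3, a less studied member of the SNAIL family, read 41, 33, 131 and 118 times, which rose from 1.14 and 1.05 CPM to 3.83 and 3.30 CPM (log2 fold change 1.70, SE 0.33, edgeR adjusted p = 0.028). The lower ones, named here after their values were seen, were the transcription factor Foxc2, read 18, 32, 8 and 6 times (log2 fold change -1.89, edgeR adjusted p = 0.15), and the integrin Itgb3, with 16.5 and 25.3 CPM against 10.6 and 15.3 CPM (log2 fold change -0.69, edgeR adjusted p = 0.14). Fibronectin, Fn1, a matrix protein that rises in EMT, was not called at 1757 and 1921 CPM against 1928 and 2084 CPM (log2 fold change 0.13, edgeR adjusted p = 0.55).

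**Figure D3:**
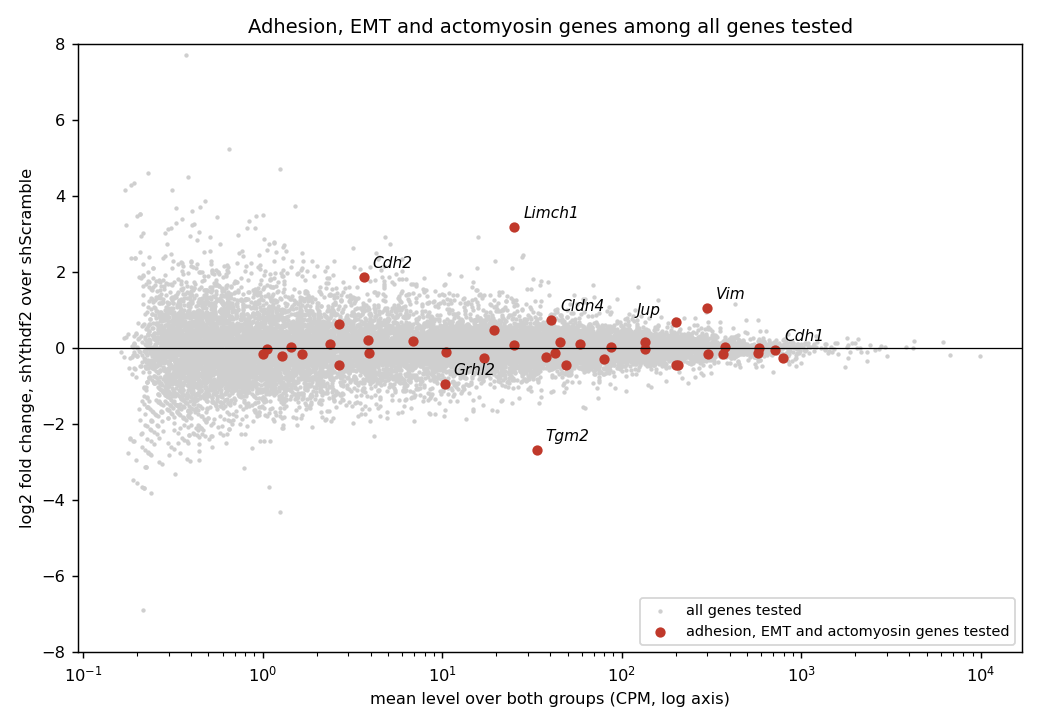
Log2 fold change of shYthdf2 over shScramble against the mean level over both groups (CPM, log axis) for all 18341 genes tested (gray) and for the 40 adhesion, EMT and actomyosin genes (red). Limch1 at 3.18 and Tgm2 at -2.68 lie outside the gray cloud at their level, Cdh2 and Vim lie on its upper edge, and most red points lie near 0.

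Apart from Limch1, the actomyosin motors and crosslinkers did not pass the test. Their log2 fold changes ran from -0.45 for Myh10 to -0.02 for Lima1 and Myl9. The non-muscle myosin II heavy chains were measured deeply. Myh9 (myosin IIA) had 299 and 337 CPM against 271 and 296 CPM (log2 fold change -0.17, edgeR adjusted p = 0.43), and Myh10 (myosin IIB) had 207 and 259 CPM against 150 and 191 CPM (log2 fold change -0.45, edgeR adjusted p = 0.12). In both the groups did not overlap, and Myh10 passed in 5 of the 12 other settings. The alpha-actinins, which bundle actin, had negative values as well, with 903 and 817 CPM against 698 and 740 CPM for Actn4 (log2 fold change -0.26, edgeR adjusted p = 0.20) and 357 and 419 CPM against 340 and 358 CPM for Actn1 (log2 fold change -0.15, edgeR adjusted p = 0.49). Of the Actn4 exon bases 8.37% are shared with Capn12 on the other strand. Lima1, EPLIN, which links catenins to actin, overlapped between groups (log2 fold change -0.02, edgeR adjusted p = 0.94), and the myosin light chain Myl9 was low, with 49, 24, 47 and 26 reads. The share of Myh9 in the summed RPKM of both heavy chains was 60.5% and 57.9% in shScramble and 65.8% and 62.1% in shYthdf2.

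Calponins, transgelins and tropomyosins stabilise actin filaments. Their tested genes had the smallest median size of log2 fold change of the role groups, 0.09. Of 9 genes 6 were tested, edgeR called 0, and 0 had an unadjusted p under 0.05. Cnn1, Acta2 and Tagln were too low to test. The log2 fold changes of the tested genes ran from -0.13 (Tpm2) to 0.15 (Tagln2). Tpm2, read 81 to 183 times per library, was measured poorly, with a 95% confidence interval from -1.02 to 0.76. Cnn3 had 574 and 599 CPM against 600 and 564 CPM, with a 95% confidence interval for the log2 fold change from -0.24 to 0.21. Tpm1 had 56.4 and 57.1 CPM against 61.2 and 60.3 CPM, where the groups did not overlap but differed by a log2 fold change of 0.10 (edgeR adjusted p = 0.66). Among the listed genes of each family, 1 gene took most in every library. Cnn3 held between 94.8% and 95.6% of the summed RPKM of the calponins. Tpm4 held between 76.4% and 78.0% of that of Tpm1, Tpm2 and Tpm4, the only tropomyosin genes on the list. The share of Tpm4 depends on the exon length used, which for Tpm1 is 5218 bases against 2890 in its longest protein-coding transcript.

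Many actin-binding genes of this kind carry a CArG box, the sequence bound by serum response factor, read here as CC, then 6 bases that are each A or T, then GG. It was found in 3 of the 37 promoters of the listed genes, or 8.11%, and in 1.63% of all promoters. The windows of 30 bases are shown, in the direction of the gene, with the box in capitals.
Cnn2, chr10:79988534-79988563, plus strand: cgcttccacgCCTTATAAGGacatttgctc
Lima1, chr15:99820177-99820206, minus strand: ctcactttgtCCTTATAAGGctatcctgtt
Myl9, chr2:156775293-156775322, plus strand: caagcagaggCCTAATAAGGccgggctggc

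All 3 overlapped between groups, with log2 fold changes of 0.09 for Cnn2, -0.02 for Lima1 and -0.02 for Myl9. The letters CATTCC, bound by TEAD factors, were found on either strand in 8 of the 37 promoters, or 21.6%, and in 14.7% of all promoters. They belong to Acta2, Actn4, Cldn6, Cldn7, Myh10, Tagln2, Tpm1 and Zeb2, and at Myh10 they share 1 base with an E-box. None of the E-box, CArG and CATTCC searches found a match in the promoters of Limch1, Vim and Jup. Nothing is read from this, since most promoters hold no such match, and no promoter of Cdh2 or Tgm2 was searched.

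In the wider actin lists, 27 of 29 actin and myosin genes were tested and 2 were called, both lower, with 0 higher and 4 lower at an unadjusted p under 0.05. Actn2, the muscle alpha-actinin, fell from 10.9 and 8.47 CPM to 5.32 and 3.91 CPM (log2 fold change -1.07, edgeR adjusted p = 0.049), and its groups did not overlap. Of 14 further proteins with LIM or calponin-homology domains, the domain types of Limch1, all were tested, 2 were higher and 1 lower at an unadjusted p under 0.05, and 1 was called: Lasp1, a LIM and SH3 protein of focal adhesions, rose from 411 and 420 CPM to 562 and 560 CPM (log2 fold change 0.43, SE 0.10, edgeR adjusted p = 0.042). Of 10 regulators and targets of the SRF and YAP pathways, 9 were tested, with 3 higher and 2 lower at an unadjusted p under 0.05, and Wwtr1, which encodes the co-activator TAZ, fell from 83.4 and 99.7 CPM to 54.8 and 61.7 CPM (log2 fold change -0.65, edgeR adjusted p = 0.027). Over all 9 wider lists 102 of 128 genes were tested, 4 were called higher and 4 lower, or 7.84%, beside the 3.91% of all genes.

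YTHDF2 reads m6A, which is laid down mostly at a short consensus of which GGACT is the best known form, so these letters were counted in the longest protein-coding transcript of each gene (GENCODE, mm10), a count added after the values had been seen. The 40 genes tested held a median of 1.05 per kilobase, and the 14063 coding genes tested that could be matched held 1.05. Limch1 had 0.847, Cdh2 1.24, Vim 0.912, Jup 1.25 and Tgm2 1.11 per kilobase. All 5 values lay between the quartiles of the coding genes, 0.643 and 1.52, and no m6A was measured in these libraries.

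**Figure D4:**
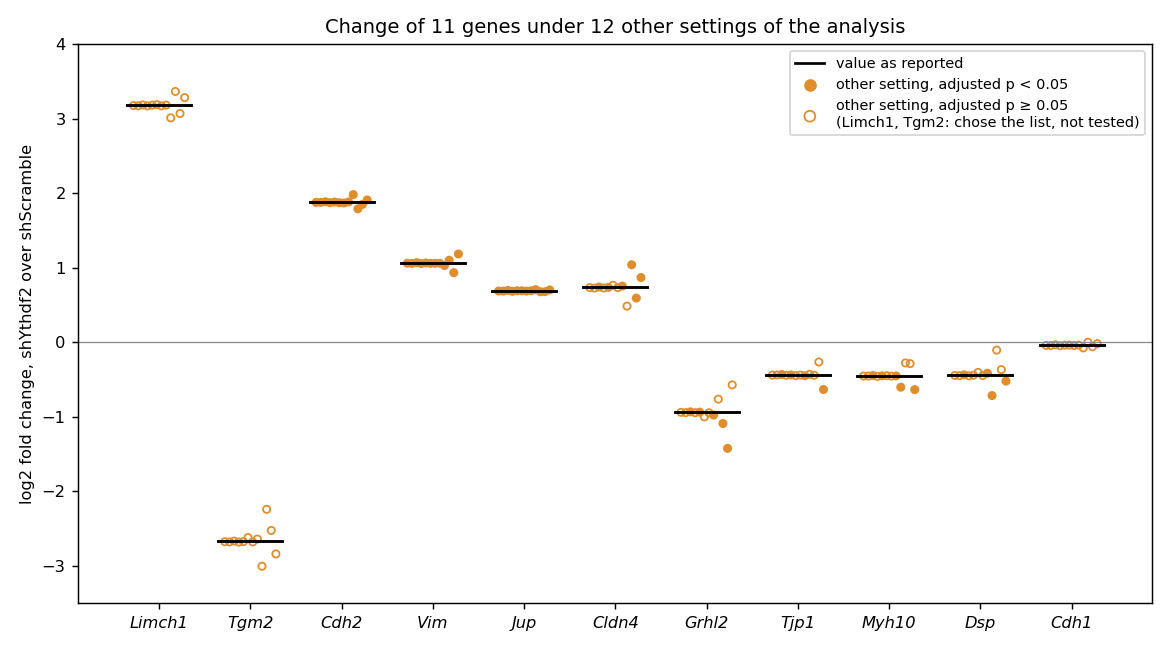
Log2 fold change of 11 genes as reported (black line) and under 12 other settings of the analysis (points, filled where the adjusted p was below 0.05): Limch1 and Tgm2, which chose the list and carry no test, the 3 called genes, the 5 genes that passed in at least 4 settings, and Cdh1. Points for Cdh2, Vim and Jup are all filled and stay above 0, those of Cldn4, Grhl2, Tjp1, Myh10 and Dsp are mixed but keep their sign, and Cdh1 stays between -0.08 and -0.0023.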

How the data were processed

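The submitters' processing notes name fastp version 0.19.4, HISAT2 version 2.2.1, DESeq2 version 1.40.2 and the mm10 build. The authors deposited unnormalized counts of reads for each gene and library, which per the file headers were made with featureCounts version 2.0.3 over RefSeq exons. Per the file headers neither the strand option nor the option to count pairs was set, so each count is a read, overlapping antisense genes cannot be told apart, and reads at several positions or over several genes were left out. The deposited table also lists the exon length used here for RPKM. Beside the 4 count columns the table held 0 columns with values of other samples.

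Libraries were grouped by their titles, 2 per group. Counts were tested with edgeR version 4.0.16 (R version 4.3.3, quasi-likelihood F test, two-sided, TMM, filterByExpr with a minimum count of 10 and a minimum total of 15, Benjamini-Hochberg over 18341 genes, called under 0.05), which was first tested on simulated data. The standard error is the size of the fold change over the square root of F. Alternatives were other scalings, filters, halved counts, a replicate block, leaving out each library, DESeq2 version 1.42.0 and limma-voom (limma version 3.58.1). A gene at 0 reads is bounded by 3 reads, at most 0.0964 CPM, which covers counting error only.

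The members and lists were chosen with earlier results of these data known. All 43 genes of the list are named, with the genes of the wider lists whose edgeR adjusted p was under 0.05 (1 of them is counted but not reported here), and Ythdf2 as the targeted gene. Tgm1, Tgm3, Fn1, Foxc2, Itgb3 and the marker genes were named after their values were seen. Sequences are from RefSeq (GRCm38.p6), with 29 of the 43 genes matched.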

Additional observations from a re-analysis of the deposited data

How the results depend on the processing

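Cdh2, Vim and Jup passed the threshold in all 12 other settings, and Limch1 and Tgm2 kept their direction. Among the values of single listed genes under other settings, 423 kept their direction and side of the threshold, 30 newly passed it and 27 changed sign, the latter all in genes that were not called. The number of genes called was the least stable value. Of all genes, 445 higher and 273 lower became 1095 and 843 without the filter, 800 and 602 with DESeq2, and from 534 to 1175 and from 300 to 1113 with 1 library left out. Of the listed genes, 1 lower became 5, 4 and from 2 to 6 in the same order, and without Limch1 and Tgm2 0 lower became 4, 3 and from 1 to 5, and 3 higher became 3 to 5 with 1 library left out. The median of the list, -0.03, ran from -0.11 without shScramble replicate 1 to 0.0084 without shScramble replicate 2. The causes were not tested.

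Some genes not called in the reported fit passed with 1 library left out, and each of them also passed with all 4 libraries under at least 1 other setting. Without shYthdf2 replicate 2, Cdh3 (0.74), Cldn4 (0.87), Tjp1 (-0.64), Dsp (-0.52), Dsg2 (-0.54), Myh10 (-0.64) and Actn4 (-0.30) passed. Without shYthdf2 replicate 1, Cldn4 (0.59) and Grhl2 (-1.43) passed. Without shScramble replicate 1, Dsp (-0.72) and Myh10 (-0.61) passed, and without shScramble replicate 2, Cldn4 (1.04) and Grhl2 (-1.09) did. The same genes came nearer to 0 without another library: Cdh3 (0.16), Dsg2 (-0.069), Tjp1 (-0.27) and Myh10 (-0.29) without shYthdf2 replicate 1, Dsp (-0.11), Myh10 (-0.28) and Cdh3 (0.30) without shScramble replicate 2, Cldn4 (0.48) without shScramble replicate 1 and Grhl2 (-0.57) without shYthdf2 replicate 2, none of which passed. The group left with 1 library was then assumed to vary like the other.

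Signs turned with limma-voom for Cldn3 (0.0078) and Cldn7 (0.013) and with halved counts for Myl9 (0.0031). With 1 library left out, the log2 fold change ranged from -0.70 to 0.73 for Cldn3, -0.36 to 0.79 for Cldn6, -0.68 to 0.69 for Cldn7, -0.021 to 0.37 for Ocln, -0.092 to 0.59 for Esrp1, -0.40 to 0.24 for Esrp2, -0.13 to 0.21 for Snai2, -0.067 to 0.096 for Ctnnd1, -0.56 to 0.067 for Dsc2, -0.32 to 0.056 for Pkp2, -0.17 to 0.14 for Lima1, -0.55 to 0.46 for Myl9, -0.0025 to 0.32 for Tagln2, -0.058 to 0.034 for Cnn3, -0.79 to 0.32 for Tpm2 and -0.068 to 0.14 for Tpm4.

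Libraries of the groups share replicate numbers, and the labels do not say that a number marks a shared batch. Deviations from the group means of same-numbered libraries correlated at 0.23, over only 2 pairs that were not independent, and the second principal component (29.4% of the variance) separated the numbers. With the replicate number as a block, 1851 genes were higher and 1674 lower, of the listed genes 7 were lower, and without Limch1 and Tgm2 5 were higher and 6 lower.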
